A study of Mus musculus with 7 samples.

Results

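The genes described here are 10 regulators of the mammary placode and bud, the first stages of the mammary gland in the embryonic skin: Eda, Edar, Tbx3, Msx1, Msx2, Lef1, Sostdc1, Pthlh, Pth1r and Bcl11b. They were chosen by name, with earlier results of these data known. Each was read from its single-symbol Affymetrix probe set with the highest mean log2 intensity. Of the 10 genes, 9 were measured, out of 17096 genes in the table; Pthlh was not analysed here. Gene expression was measured on 7 arrays of sorted mouse mammary cells. Adult luminal cells (2 arrays) were YFP+ cells of K8CREERT2/RosaYFP mice, in which a tamoxifen-inducible Cre driven by keratin 8 switches on YFP in luminal cells. Adult basal cells (2 arrays) were YFP+ cells of K5CREERT2/RosaYFP mice, in which keratin 5 drives the Cre. Both were taken 8 weeks after tamoxifen; the age and number of the mice were not given in the labels, and these arrays are marked there as analysed again. The embryonic cells (3 arrays of 2000, 2000 and 813 cells) came from Lgr5-IRES-GFP female embryos at embryonic day 14, were sorted as high for CD49f and for the Lgr5 reporter, and each replicate pooled the female embryos of a litter. The labels do not state whether replicate adult arrays stem from different mice; the p-values below reflect array-to-array spread, which may be technical.

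Mammary placodes are thickenings of the embryonic ectoderm that sink into the underlying mesenchyme as buds. Their position and growth depend on WNT signalling, read out by beta-catenin with LEF/TCF factors, on the TNF-family ligand EDA and its receptor EDAR, and on T-box and MSX transcription factors. The bud epithelium secretes PTHrP, the product of Pthlh, which acts on its receptor PTH1R in the mesenchyme around the bud and lets that mesenchyme respond to BMP signals. In the adult gland the epithelium has an inner luminal layer and an outer basal, contractile layer.

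Before the members, the arrays were checked against their labels. Basal markers were higher in basal cells in 10 of 11 measured genes, with basal and luminal mean log2 intensities of 12.09 and 9.34 for Krt5 and of 12.02 and 9.48 for Krt14. Luminal markers were higher in luminal cells in 7 of 12; Krt8 (0.40 ± 0.12, SE, luminal minus basal on the log2 scale) and Krt18 (0.68 ± 0.12) did not pass. A gene passed, and is called changed, when its Benjamini-Hochberg adjusted p in limma was under 0.05 over all genes and the difference was at least 2-fold. Background was set at a log2 intensity of 5.78, the 95th percentile of 83 probe sets for 65 genes specific to organs such as liver, retina and testis. By this level 5 of the 9 members (Eda, Tbx3, Sostdc1, Pth1r and Bcl11b) lay above background on all 7 arrays, Msx2 on 4, Edar on 2, and Msx1 and Lef1 on none. Levels in the embryonic columns of the table sat close to the adult mean: embryonic minus adult means of the members ran from -0.10 to 0.05, and over all genes that difference had an SD of 0.10, against 0.55 for luminal minus basal. Embryonic levels were therefore not tested against adult levels. For the same reason, an embryonic value above or below background is not read as presence or absence in embryonic cells.

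Adult luminal and basal cells differed in 2 of the 9 members. Msx2 was higher in luminal cells, by a size that is not exact because both basal arrays lay below background, and Bcl11b was higher in basal cells by 2.09-fold. The other 7 did not pass, with Edar and Sostdc1 both at -0.72 (luminal minus basal, log2) and the remaining 5 between -0.36 and 0.22. Over all genes, 6.81% changed in limma (1165 of 17096): 3.57% of all genes were higher in luminal and 3.24% higher in basal cells. Of the 65 genes of other organs 1 changed. For 8 of the 9 members the luminal arrays lay wholly on one side of the basal arrays, as they did for 59.2% of all genes, so this count is not read as a trait of the members. The median difference was -0.26 over the members and 0.02 over all genes, and the median size of the difference, sign left out, was 0.36 over the members and 0.21 over all genes. With an array left out, its group held 1 array and a gene's own spread came from the other group alone. Calls from such fits, passing or not, are therefore of limited weight. Without luminal replicate 1 or 2, Msx2 was at 1.35 and 1.37 and Bcl11b at -1.17 and -0.95, and neither passed. Without basal replicate 1, Edar was at -1.06 and Sostdc1 at -1.04, with no basal spread measured.

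**Figure D1:**
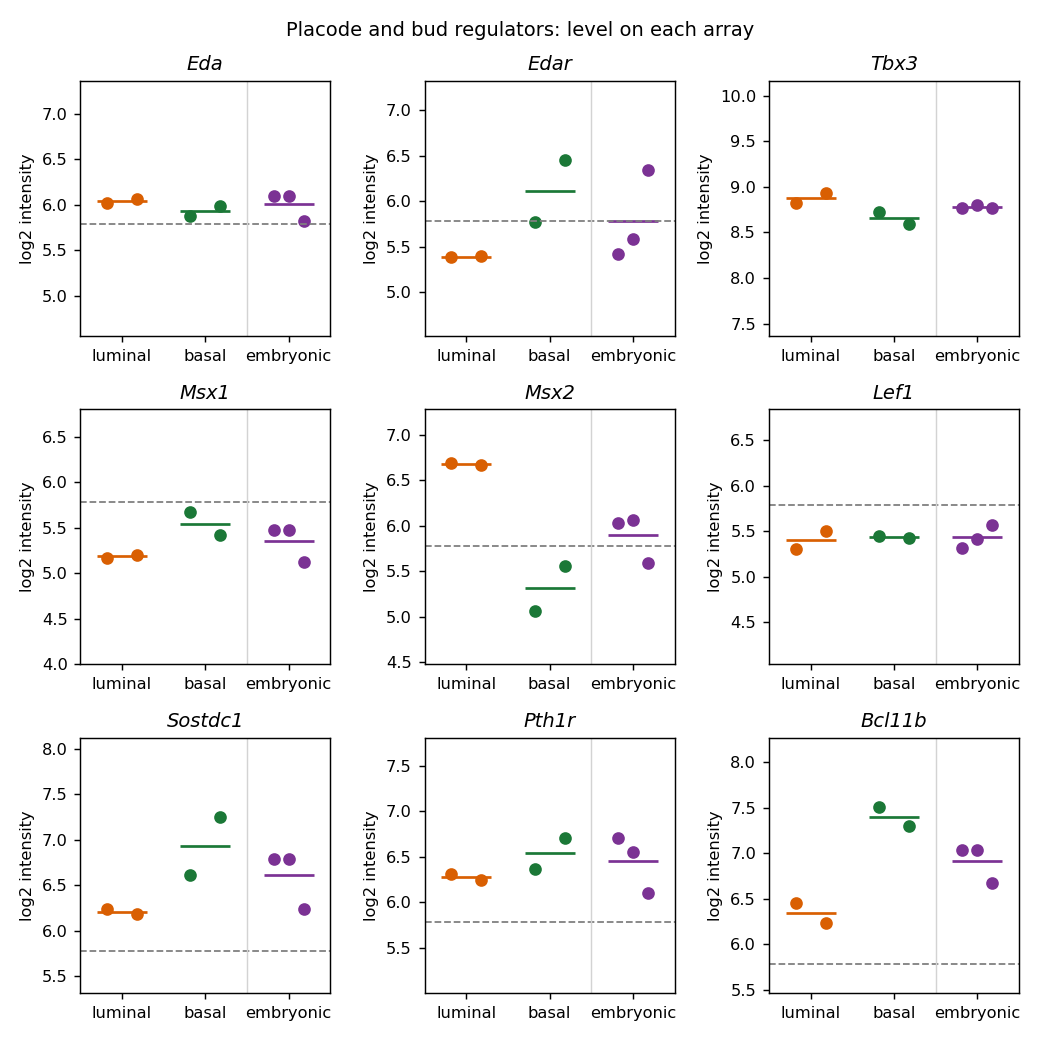
Log2 intensity (vertical axis, the same span in each panel) of the 9 measured regulators on each array: 2 luminal, 2 basal and 3 embryonic arrays in replicate order. Points are arrays, short lines are group means, and the dashed line is the background level of 5.78. The luminal points of Msx2 lie above its basal points, those of Bcl11b below, and the Lef1 points overlap.

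The promoters of the 2 changed members are shown so that a reader can see the sequence next to which each gene starts; the deposited data hold no measurement on them. Of the 10 regulators 8 had entries in RefSeq's promoter table (GRCm38.p6), with the 250 bases before each start used here. Windows were searched on both strands for CTTTGA (the LEF/TCF core), TAATTG (a core bound by MSX homeodomains) and AGGTGTGA (T-box). Capitals mark a match. The Bcl11b window is chr12:108003415-108003664 and the Msx2 window chr13:53472781-53473030, both on the minus strand and written 5′ to 3′.
Bcl11b: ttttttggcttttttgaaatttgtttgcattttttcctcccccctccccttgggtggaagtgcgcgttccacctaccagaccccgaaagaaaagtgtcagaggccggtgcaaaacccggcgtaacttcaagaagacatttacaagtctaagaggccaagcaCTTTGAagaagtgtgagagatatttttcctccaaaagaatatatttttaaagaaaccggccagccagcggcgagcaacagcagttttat
Msx2: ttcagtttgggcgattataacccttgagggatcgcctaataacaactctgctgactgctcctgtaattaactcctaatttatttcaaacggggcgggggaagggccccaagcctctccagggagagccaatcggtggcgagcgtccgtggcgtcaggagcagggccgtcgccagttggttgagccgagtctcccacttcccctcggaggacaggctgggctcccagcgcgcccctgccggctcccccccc
The Bcl11b window held 1 LEF/TCF core, starting 89 bases before the gene's start. The Msx2 window held none of the 3 motifs as spelled. Of all 32851 such windows, 13.8% held CTTTGA or its reverse complement, 7.17% TAATTG and 1.12% AGGTGTGA. The GC content was 44.8% for Bcl11b and 61.6% for Msx2, against a median of 52.4% over all windows.

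EDA is a secreted TNF-family ligand and EDAR its receptor in ectodermal placodes. Eda (probe set 1419596_PM_at) had log2 intensities of 6.02 and 6.06 on the luminal arrays and 5.87 and 5.98 on the basal arrays. The groups did not overlap, yet their difference, 0.11 ± 0.12, missed the threshold (limma adjusted p = 0.613, 95% interval -0.19 to 0.41). Its 4 other probe sets lay below background on all adult arrays. Edar (1419724_PM_at) had 5.38 and 5.40 on the luminal arrays and 5.77 and 6.46 on the basal arrays. Only basal replicate 2 lay above background among the adult arrays. At -0.72 ± 0.23 the gene missed the threshold (limma adjusted p = 0.0928, 95% interval -1.30 to -0.15). It was -1.06 without basal replicate 1 and -0.38 without basal replicate 2. Either fit held 1 basal array, so no basal spread was measured. The size of the receptor's difference thus turned on which basal array was used.

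Tbx3 is a transcriptional repressor that mammary placodes need to form. Its probe set with the highest mean (1439567_PM_at) gave 8.82 and 8.93 on the luminal arrays and 8.72 and 8.60 on the basal arrays, and the difference, 0.22 ± 0.13, missed the threshold (limma adjusted p = 0.311, 95% interval -0.09 to 0.53). The luminal arrays lay above the basal arrays on all 3 Tbx3 probe sets. The difference was 0.38 ± 0.11 on 1448029_PM_at and 0.96 ± 0.34 on 1437479_PM_x_at, neither passing when each probe set was tested on its own (limma adjusted p = 0.0955 and 0.144). On the latter, an x-type probe set whose probes can match other transcripts, the luminal arrays stood at 7.65 and 6.80 and the basal arrays at 5.96 and 6.57.

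MSX1 and MSX2 are related homeodomain repressors of the bud and of other sites where epithelium and mesenchyme interact. Msx2 (1449559_PM_at) had log2 intensities of 6.69 and 6.66 on the luminal arrays and 5.07 and 5.56 on the basal arrays, or intensities of 103 and 101 against 33.6 and 47.2. Both luminal arrays were above background and both basal arrays below it, so the size of the difference, 1.36 ± 0.19 (limma adjusted p = 0.0101), is not exact. It was 1.35 without luminal replicate 1 (limma adjusted p = 0.0721) and 1.37 without luminal replicate 2 (limma adjusted p = 0.0597), both missing the threshold at nearly the same size. A second Msx2 probe set lay far below background, at 3.15 to 3.33 on the adult arrays, with a difference of 0.11; averaged over both probe sets the difference was 0.74, under the 2-fold minimum. Msx1 (1417127_PM_at) was at 5.17 and 5.20 on the luminal and 5.67 and 5.41 on the basal arrays. All of these were below background and the difference, -0.36 ± 0.14, missed the threshold (limma adjusted p = 0.147), so the Msx1 values do not show whether the paralogs differ.

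LEF1 is the DNA-binding partner through which beta-catenin switches on WNT targets in the bud. Lef1, measured by 1 probe set (1421299_PM_a_at), had 5.30 and 5.50 on the luminal and 5.44 and 5.43 on the basal arrays. The groups overlapped, all values were below background, and the difference, -0.03 ± 0.13, missed the threshold (limma adjusted p = 0.910, 95% interval -0.36 to 0.29). Sostdc1 encodes a secreted inhibitor that binds BMP ligands and the LRP co-receptors of WNT, and that limits placode size. Its brightest probe set (1460250_PM_at) had 6.24 and 6.18 on the luminal and 6.61 and 7.25 on the basal arrays. The groups did not overlap and the basal arrays lay apart from each other by 0.64. At -0.72 ± 0.22 Sostdc1 missed the threshold (limma adjusted p = 0.0822, 95% interval -1.27 to -0.17). It was -1.04 without basal replicate 1 and -0.40 without basal replicate 2. As for Edar, either fit held 1 basal array, so no basal spread was measured. The second Sostdc1 probe set lay below background, with a difference of -0.16.

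Pth1r, the receptor through which PTHrP acts on mesenchyme, was measured by 1 probe set (1417092_PM_at). It had 6.31 and 6.25 on the luminal and 6.37 and 6.71 on the basal arrays, all above background. The groups did not overlap, but the difference, -0.26 ± 0.16, missed the threshold (limma adjusted p = 0.328, 95% interval -0.65 to 0.12).

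Bcl11b encodes a zinc finger transcription factor best known from T cell and skin development. Its probe set with the highest mean (1450339_PM_a_at) had 6.45 and 6.23 on the luminal and 7.50 and 7.30 on the basal arrays, or intensities of 87.6 and 75.1 against 182 and 158. The difference was -1.06 ± 0.15 (limma adjusted p = 0.0103), close to the 2-fold minimum. All 4 Bcl11b probe sets had lower luminal than basal means. The largest difference was -1.61 ± 0.13 on 1435227_PM_at (limma adjusted p = 0.00583 over all probe sets), followed by -0.90 ± 0.15 on 1438784_PM_at and -0.31 ± 0.18 on 1452966_PM_at, which did not pass. Luminal and basal arrays overlapped only on the last of the 4. For the probe set with the highest mean, the difference was -1.17 without luminal replicate 1 (limma adjusted p = 0.0537) and -0.95 without luminal replicate 2 (limma adjusted p = 0.0644). Without basal replicate 1, which left 1 basal array, it was -0.96, under 2-fold. Averaged over its 4 probe sets Bcl11b was at -0.97, and with 16 added to each intensity it was at -0.93, both also under 2-fold. When each probe set was tested separately, 3 of the 22 probe sets of the members changed, 2 of Bcl11b and 1 of Msx2, against 4.79% of all probe sets.

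**Figure D2:**
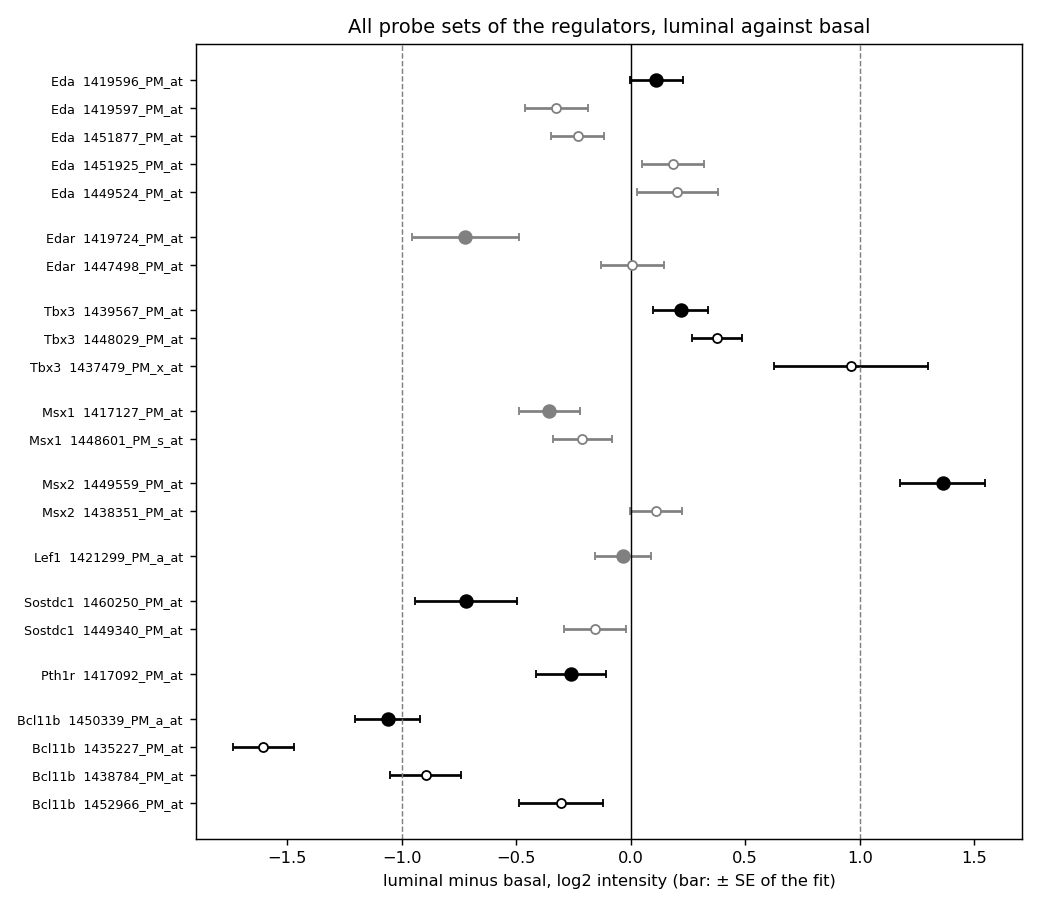
Luminal minus basal log2 intensity (horizontal axis) of all 22 probe sets of the 9 measured regulators, with bars of ± 1 SE from limma fitted over all probe sets (2 and 2 arrays). Large filled points are the probe sets with the highest mean, grey points have an adult mean below background, and dashed lines mark 2-fold. The 4 Bcl11b probe sets lie at -1.61, -1.06, -0.90 and -0.31, and the 3 Tbx3 probe sets at 0.22, 0.38 and 0.96.

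Genes that act with these regulators were read from the same fit in 6 lists, each gene counted once. These lists too were chosen with earlier results of these data known, so their shares are not a test of the pathways. Of 111 measured genes 16 changed (14.4%), 2 higher in luminal and 14 higher in basal cells, with a median difference of -0.06. Over all genes 6.81% changed, 3.57% higher in luminal and 3.24% higher in basal cells. Each list below is to be set beside that share, and lists with 2 changed genes are not read as standing out from it. The count of 16 fell without luminal replicate 1, which left 1 luminal array. Among 25 other placode and bud genes 4 changed, all higher in basal cells. These were Lgr5, a receptor for R-spondins (-3.90 ± 0.18), the P-cadherin gene Cdh3 (-3.01 ± 0.14), Trp63, the p63 gene of stratified epithelia (-2.77 ± 0.19), and the ligand gene Wnt10a (-1.95 ± 0.29). Cdh3 and Trp63 were also among the basal markers of the label check, so their side is not a separate result. Wnt10a did not pass with all 7 arrays in the fit (limma adjusted p = 0.0542), nor without luminal replicate 1 (-1.91) or luminal replicate 2 (-1.99). Its luminal mean, 4.79, lay below background, so the size of its difference is not exact. The ligand gene Wnt6 (-0.48 ± 0.15) did not pass, and Wnt10b lay below background in both layers. The list's median was -0.30.

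In the EDA and NF-kB pathway 2 of 18 genes changed, in opposite directions (median 0.15). Edaradd, the adaptor that couples EDAR to NF-kB signalling, was higher in basal cells (-1.15 ± 0.20, limma adjusted p = 0.0178), the side on which Edar lay. With all 7 arrays in the fit Edaradd did not pass (limma adjusted p = 0.0905), nor did it without luminal replicate 1 (-0.98), luminal replicate 2 (-1.31) or basal replicate 1 (-0.94). It fell under the 2-fold minimum when its probe sets were averaged (-0.495) and when 16 was added to each intensity (-0.97). Ikbkg, the regulatory subunit of the IkB kinase, was higher in luminal cells (1.46 ± 0.13), but at 0.97 under the 2-fold minimum when its probe sets were averaged. Its basal mean, 5.48, lay below background, so this size is not exact. Tnfrsf19, a receptor related to EDAR, had -0.24 ± 0.13 and did not pass, and Eda2r lay below background in both layers.

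Of 17 genes of the PTHrP pathway, Prkar2b, a regulatory subunit of protein kinase A, was higher in luminal cells (1.19 ± 0.18) and Mmp2, a matrix metalloproteinase, was higher in basal cells (-3.52 ± 0.39), with a median of -0.05. Prkar2b was at 0.96 and did not pass without luminal replicate 2. Of 15 genes of the LEF/TCF and beta-catenin complex, 3 changed, all higher in basal cells: the LEF1 paralog Tcf7l1 (-1.37 ± 0.19), the corepressor gene Tle1 (-1.33 ± 0.20) and Dact1, a WNT pathway modulator (-1.52 ± 0.28, a size that is not exact since its luminal mean, 5.22, lay below background). Without luminal replicate 1 none of the 3 passed (limma; -1.33, -1.06 and -1.41), and without luminal replicate 2 Tcf7l1 (-1.41) and Dact1 (-1.63) did not. With 16 added to each intensity, Dact1 was at -1.21 and did not pass (limma adjusted p = 0.0659). The beta-catenin gene Ctnnb1 (0.18 ± 0.13) did not pass, and the median was -0.03.

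Of 17 T-box, MSX and DLX paralogs and Bcl11a, none changed in limma, with 2 at an unadjusted p under 0.05; 1 of the 17 had an adult mean above background, so these values do not show that the paralogs were alike. Among 21 BMP and WNT antagonists, BMP pathway genes and LRP partners of SOSTDC1, 5 changed, all higher in basal cells (median -0.46). They were Fst, an activin and BMP antagonist (-3.14 ± 0.17), the ligand gene Bmp7 (-1.69 ± 0.14), the pseudoreceptor gene Bambi (-1.77 ± 0.31), and both Lrp6 (-1.19 ± 0.16) and Lrp4 (-1.34 ± 0.20), co-receptors that SOSTDC1 binds. Without luminal replicate 1, Lrp6 (-1.09), Lrp4 (-1.14) and Bambi (-1.79) did not pass, nor did Bambi without luminal replicate 2 (-1.74). The luminal mean of Bambi, 4.73, lay below background, so its size is not exact either. With 16 added to each intensity, Bambi was at -1.33 and did not pass (limma adjusted p = 0.0658). Wnt10a, Bambi and Lrp4 fell outside the rule of 3 named genes per direction and were named after their values were seen.

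**Figure D3:**
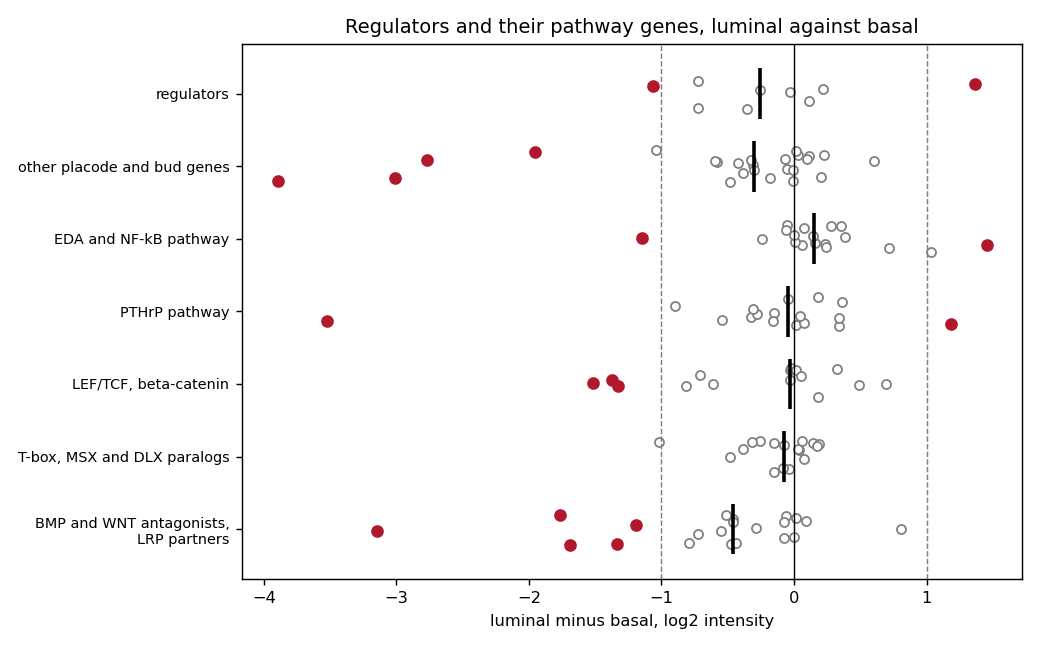
Luminal minus basal log2 intensity (horizontal axis) of the 9 measured regulators and of the genes in the 6 pathway lists; each point is a gene, red points changed (limma adjusted p under 0.05 and at least 2-fold), vertical bars are list medians and dashed lines mark 2-fold. Changed genes number 2 of 9 regulators, and among changed pathway genes all but 2 lie on the basal side.

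Markers of other cell types were read beside these results, since each array measures a pool of cells in which more cells of a type and more RNA per cell cannot be told apart. Fibroblast and mesenchyme markers had a summed intensity of 3526 and 5571 on the luminal and 8262 and 9933 on the basal arrays, and 4 of 15 changed, all higher in basal cells. Of its defining genes Pdgfra lay below background in both layers, while Col1a1 stood at 9.50 in luminal and 10.87 in basal cells (difference -1.38 ± 0.56, not passing; -2.29 and passing without luminal replicate 2). Endothelial markers summed to 495 and 837 on the luminal and 1179 and 1911 on the basal arrays, with 2 of 12 changed, both higher in basal cells, 8 of 12 changed without basal replicate 1, and 7 of 12 with the replicate number as a block. Pecam1 had -1.63 ± 0.43 and did not pass (limma adjusted p = 0.0561). It passed in 5 alternatives, by limma adjusted p: with the replicate block (0.0103), among genes above background (0.0224), with an intensity trend (0.0280), without luminal replicate 2 (0.0416) and without basal replicate 1 (0.0314). These markers lay on the side of Bcl11b, Edar, Sostdc1 and Pth1r and of the 14 pathway genes higher in basal cells, and their part in those differences was not tested. Endothelial markers were higher on basal replicate 2 than on replicate 1 in 12 of 12 genes (median 0.73). Of all genes 55.2% were higher there (median 0.03), as were 5 of the 9 members. Among these were Edar (0.68), Sostdc1 (0.64), Msx2 (0.49) and Pth1r (0.34), while Bcl11b was lower there (-0.20). On luminal replicate 2 endothelial markers were also higher than on replicate 1 (median 0.59). There the differences were 0.02 for Edar, -0.06 for Sostdc1, -0.02 for Msx2, -0.07 for Pth1r and -0.22 for Bcl11b. T cell markers, relevant to Bcl11b and Lef1, summed to 441 and 510 on the luminal and 537 and 630 on the basal arrays. None of 11 changed in limma (1 at an unadjusted p under 0.05), 2 had an adult mean above background, and Cd3e lay below it in both layers. Under the replicate block, among genes above background and without luminal replicate 2, 1 T cell marker changed, higher in basal cells. Leukocyte markers summed to 591 and 721 against 695 and 852, with none of 12 changed in limma (3 at an unadjusted p under 0.05) and Ptprc below background.

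The 3 embryonic arrays were compared with each other, with no test, since they form a single group. Replicate 3, made from 813 cells, lay apart from replicates 1 and 2 for most members. Tbx3, on its probe set with the highest mean, had the same value in replicates 1 and 3. Of all probe sets 17.8% tied in this way, so the tie does not show that Tbx3 was alike in these arrays. Values of replicates 1 and 2 were identical for 4 of the 9 members (Eda, Msx1, Sostdc1 and Bcl11b), where 36.1% of all genes tied in this way. The highest and lowest embryonic arrays differed by 0.04 to 0.93 on the log2 scale, and for 0 of the 9 members by 2-fold or more, where 2.82% of all genes did. The median range was 0.35 over the members and 0.24 over all genes.

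Edar had the widest range, with log2 intensities of 5.42, 5.58 and 6.34 in replicates 1, 2 and 3, of which only the last lay above background. Lgr5, the gene whose reporter was used in the sort, was also highest in replicate 3, at 7.18, 7.34 and 8.53. Basal markers showed no common side: 6 of 11 were higher in replicate 3 than in the mean of the other two (median difference 0.14). Itga6 was highest there (9.62, 9.71 and 10.10) and Krt14 lowest (10.37, 10.93 and 9.71). They were not alike across the arrays, since 7 of 11 ranged 2-fold or more, where 2.82% of all genes did. Replicates 1 and 2 also differed for Lama3 (8.12 and 9.19) and Krt5 (10.19 and 11.02), but little for Cdh3 (8.00 and 7.95). Pth1r had 6.71, 6.56 and 6.10, Sostdc1 6.79, 6.79 and 6.24, and Msx2 6.03, 6.07 and 5.59, so that Msx2 was below background in replicate 3 alone. Bcl11b had 7.03, 7.03 and 6.68, Msx1 5.47, 5.47 and 5.13, and Eda 6.10, 6.10 and 5.82. Lef1 had 5.32, 5.41 and 5.57, all below background, and Tbx3 8.77, 8.80 and 8.77. As embryonic columns sat close to the adult mean, values below background do not show that a gene was absent from embryonic cells. Replicate 3 was above the mean of the other two for 2 of the 9 members (Edar and Lef1) and below it for 7, where 34.7% of all genes lay above it.

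Other probe sets of Tbx3 and Bcl11b gave different orders of the embryonic arrays. On 1448029_PM_at Tbx3 had 8.03, 8.16 and 8.64, and on 1437479_PM_x_at 6.43, 6.55 and 7.22, so replicate 3 was highest on both but not on the probe set with the highest mean. For Bcl11b, 1435227_PM_at gave 6.42, 6.28 and 7.32, a range of 1.05 and the only one of the 22 probe sets that reached 2-fold. Replicate 3 was highest on 3 of the 4 Bcl11b probe sets and lowest on the remaining one, so the embryonic arrays give no common direction for this gene. Endothelial markers were higher in replicate 3 in 0 of 12 genes (summed intensities 871, 895 and 561), leukocyte markers in 0 of 12 (673, 669 and 522), and fibroblast and mesenchyme markers in 2 of 15 (6724, 6115 and 4788). These markers were lower in the array in which Pth1r, Sostdc1 and Msx2 were lower, and their part was not tested. Lower values there were not particular to these markers. Genes of other organs were higher in replicate 3 in 8 of 65 (1936, 1927 and 1681), against 34.7% of all genes.

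**Figure D4:**
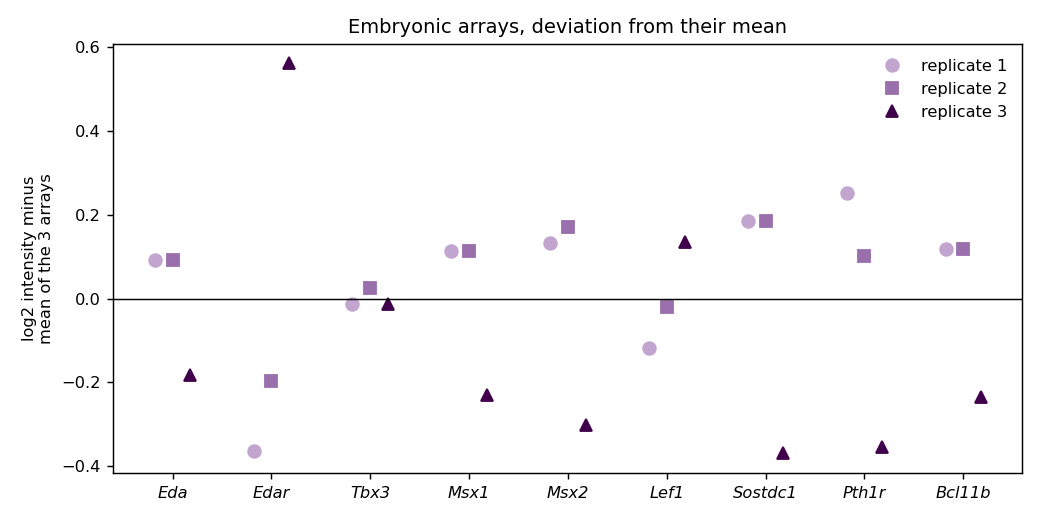
Log2 intensity minus the mean of the 3 embryonic arrays (vertical axis) for the 9 measured regulators, with 1 symbol per replicate. Replicates 1 and 2 lie close together, and replicate 3 lies highest for Edar and Lef1 and lowest for Eda, Msx1, Msx2, Sostdc1, Pth1r and Bcl11b.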

How the data were processed

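Sorted-cell RNA was amplified (whole transcriptome chemistry) before Affymetrix hybridisation, per the labels' protocols. For the adult arrays the labels' tissue and treatment entries describe embryonic cells, so the groups were taken from titles and source names. Handling details of the adult arrays are therefore less certain. The authors deposited linear probe set intensities in 7 columns; RMA and affy are named in the submitters' processing notes, with versions, settings and any adjustment between arrays not given in the sources used here. Log2 of the deposited intensity was taken. Of 45141 rows, 4 without values and 104 controls were left out. Of 45033 probe sets, 28895 had 1 gene symbol, 551 several and 15587 none listed. Each of 17096 genes was represented by its brightest probe set, averaged over the 7 arrays. Limma (version 3.58.1, R 4.3.3) fitted luminal and basal means to the 4 adult arrays with eBayes (2 residual and 3.73 prior degrees of freedom), since the embryonic columns carry many tied values; 37.6% of probe sets were identical in embryonic replicates 1 and 2. Tested on simulated luminal and basal arrays (17096 genes, 200 altered), the fit found 59 of 100 log2 changes of 1.5 and 97 of 100 of 3, plus 1 false call. Fewer genes were altered there than the 1165 called in the data, and all were raised in luminal arrays. No change near 2-fold was simulated, so these rates do not cover differences of the size seen for Bcl11b. Array number limits the precision. The members and lists were chosen with earlier results of these data known. All members were named. Per list, up to 3 changed genes per direction by adjusted p and up to 2 that did not pass were named, in list order. Defining markers were added. For list genes, differences are given only where a layer lay above background, while for members they are also given below it. Alternatives covered the arrays in the fit, probe set choice, dim genes, normalization, offset, prior, replicate block, fold minimum and each array left out. Separate tests of every probe set were added after seeing the data. Figures used matplotlib 3.10.9 in Python 3.11.15.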

Additional observations from a re-analysis of the deposited data

How the results depend on the processing

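Of the 9 members, 2 changed and the count was 2 with all 7 arrays in the fit, among genes above background, with quantile normalization, an intensity trend, no fold minimum, the most variable probe set or every probe set tested separately. It was 0 with the mean of a gene's probe sets, 1 (Msx2) with log2 of the intensity plus 16, and 0 to 3 with an array left out. The 1165 changed genes became 710 with that offset, 2879 with no fold minimum and 519 to 1443 with an array left out, and 2158 probe sets changed when tested separately. Pathway genes numbered 16, and 8 to 19 with an array left out. The offset shrinks differences of dim genes. Leaving out an adult array, luminal or basal, left 1 array in its group, assumed to vary like the others. Other causes were not tested. Eda turned to -0.012 with the mean of its probe sets. With an array left out Lef1 ran from -0.13 to 0.064, above 0 without luminal replicate 1. Tcf7l2 (-0.03 ± 0.22, not passing) was 0.15 with its most variable probe set and -0.34 to 0.28 with an array left out, above 0 without luminal replicate 1 or basal replicate 2. With the replicate number as a block 1208 genes, 17 pathway genes and 2 members changed. Same-numbered deviations correlated at 0.08 over genes, and the numbers were not taken as pairs. A correlation over all genes cannot show that no genes share a replicate difference. Endothelial markers were higher on replicate 2 in both basal (median 0.73) and luminal cells (median 0.59). For the embryonic arrays, the count of members ranging 2-fold or more was 0, and 1 (Bcl11b) with the most variable probe set.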
